A study of Homo sapiens with 6 samples.

Results

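Core centriolar satellite genes are described here in RPE-1, a line of immortalised human cells from the retinal pigment epithelium, after depletion of the splicing factor SON. The 10 genes were taken by name from a table of 58735 genes: PCM1, CEP131, CEP290, OFD1, CEP72, SSX2IP, FOPNL, CCDC14, KIAA0753 and MIB1. Each name matched 1 row, and all 10 were among the 16591 genes counted highly enough to be tested. The study holds 6 RNA-seq libraries, 3 from cells given an siRNA against SON (siSON) and 3 from cells given a scramble siRNA (siControl). Both groups come from the same modified line, in which CETN2 carries a GFP tag and PLK4 is driven by an rtTA-dependent promoter that responds to doxycycline, and doxycycline at 1 µg/mL was used to induce it in both groups. Every value below therefore describes cells with induced PLK4, and cells without induction were not analysed here. The comparison asked how messenger RNA abundance changes when SON is depleted.

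Centriolar satellites are small protein granules that lie around the centrosome and move along microtubules. PCM1 is their scaffold: its coiled coils hold the granules together and bind the other proteins, here called clients, which move between satellites, centrioles and the base of the cilium. Satellites are known for delivering and storing proteins needed for centriole duplication, microtubule anchoring and cilium formation.

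Library totals ran from 54572365 to 69764836 counts, and the members themselves were counted between 173 and 10401 times in a library. SON itself fell from 297 ± 14.5 CPM (read counts scaled to a common library size with TMM factors; SD, n = 3) to 67.6 ± 2.5 CPM (SD, n = 3). Replicates 2 and 3 of each group lay closest together, with at most 7.18 for the chi-square of their counts divided by its degrees of freedom, while pairs with replicate 1 gave at least 18.3. Leaving out replicate 1 of both groups kept the same number of members called, 7, with 2 higher and 5 lower. The labels do not say whether replicates came from separate cultures, so p-values measure only the spread between these libraries, which may be technical. The 9 markers of retinal pigment epithelium summed to 51.9 to 53.7 CPM in siControl and 74.3 to 83.6 CPM in siSON. Of these, TYR and TTR had 0 counts in all libraries and RPE65 and RLBP1 were near 0. The other 5 were all called: MITF, OTX2 and BEST1 rose 1.43-fold, 1.77-fold and 1.53-fold, while PMEL and SERPINF1 fell to 9.76% and 41.0% of control. Of the markers of other cell types, the 3 neuronal ones summed to 94.5 to 99.4 CPM in siControl and 37.5 to 41.7 CPM in siSON. SYT1 fell from 92.0 to 30.4 CPM on average, SNAP25 rose from 5.05 to 9.11 CPM, and RBFOX3 was at 0. The epithelial keratins KRT8, KRT18 and KRT19 summed to 764 to 864 CPM in siControl and 1331 to 1393 CPM in siSON. KRT18 rose 2.79-fold and KRT8 1.27-fold, while KRT19 had at most 22 counts in a library and was not tested. Blood markers summed to at most 2.02 CPM, endothelial markers to at most 1.39 CPM and multiciliated cell markers to at most 2.90 CPM. The part of these shifts in the results below was not tested.

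Of the 10 members, 7 passed an adjusted p of 0.05 by the quasi-likelihood test of edgeR and are called changed, 2 of them higher and 5 lower in siSON. Over all genes tested 71.7% were called, 35.2% as higher and 36.5% as lower, so 70.0% for the members is close to the background. The groups did not overlap in CPM for 8 of the 10 members, beside 75.1% of all genes tested. The median log2 fold change (siSON over siControl) of the members was -0.17, beside -0.03 for all genes tested. The members moved in opposite directions and by very different amounts: CEP131 fell to 27.8% of its control level, CEP290 and CEP72 fell to 54.2% and 54.3%, FOPNL rose 2.15-fold and MIB1 rose 1.69-fold. OFD1, SSX2IP and KIAA0753 did not pass the threshold. Bulk RNA does not show whether fewer cells held a transcript or each cell held less of it, and these cannot be told apart here.

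**Figure D1:**
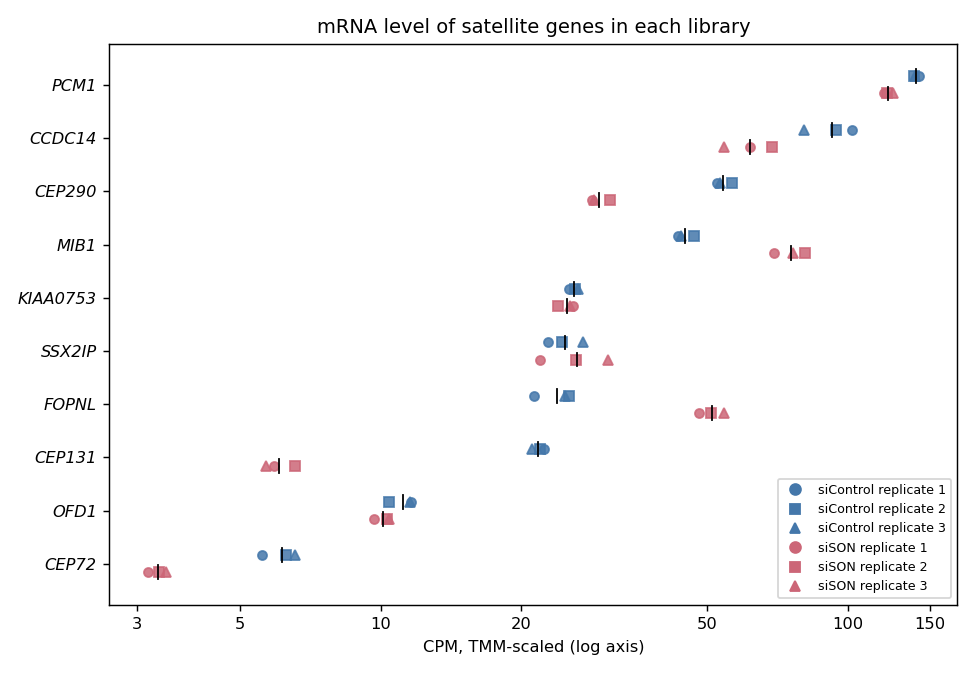
Level of each satellite gene in every library, in CPM after TMM scaling on a log axis; each point is 1 library, shapes give the replicate number and black ticks the group means. CEP131, CEP290, CEP72, CCDC14 and PCM1 lie lower in all 3 siSON libraries, FOPNL and MIB1 lie higher in all 3, and SSX2IP and KIAA0753 overlap between groups.

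PCM1, the scaffold, lies on GRCh38 chromosome 8 from 17922840 to 18029944 on the plus strand and has 39 exons in its longest coding transcript. It was the most counted of the 10 and varied little between replicates. In siControl replicates 1 to 3 it stood at 142, 139 and 139 CPM, and in siSON replicates 1 to 3 at 119.6, 121.5 and 124.9 CPM. All 3 siSON libraries were below all 3 siControl libraries, and the gap was small. The log2 fold change was -0.20 with an SE of 0.05 (95% interval -0.31 to -0.09; adjusted p 0.00339), or 87.1% of control. Its size depended on the scaling between libraries: it was -0.40 with library size alone and -0.47 under cyclic loess normalization, past the threshold in both.

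CEP131, known also as AZI1, is a satellite client that takes part in centriole duplication and cilium formation. It lies on chromosome 17 from 81189593 to 81222999 on the minus strand, with 26 exons. Its level was 22.3, 21.9 and 21.1 CPM in the siControl libraries and 5.91, 6.55 and 5.67 CPM in the siSON libraries. The lowest control library held more than 3 times the level of the highest knockdown library, as the plot of levels by library shows. This is a log2 fold change of -1.85 ± 0.09 (SE, with an adjusted p of 1.57e-08), and 9.36% of all genes tested had a lower one. An antisense gene, AC027601.2, shares 120 exonic bases with CEP131 but was counted only 4 times over all libraries.

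CEP290 and CEP72 are partners at satellites. CEP290 also builds the transition zone, the gate at the base of the cilium, and is mutated in Joubert syndrome and other ciliopathies. CEP290 (chromosome 12, 88049014 to 88142216, minus strand, 53 exons) had 52.5, 56.6 and 53.3 CPM in siControl and 28.4, 31.0 and 28.7 CPM in siSON. The groups were far apart relative to their spread, with a log2 fold change of -0.88 ± 0.07 (SE, with an adjusted p of 3.80e-07). C12orf29, with 13274 counts over all libraries, lies on the other strand and shares 401 exonic bases, 3.86% of those of CEP290; without a stated strand setting, reads from these bases cannot be assigned to one gene.

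CEP72 helps to keep the pericentriolar material together at the spindle poles. It was the least counted member, at 5.56, 6.26 and 6.56 CPM in siControl and 3.17, 3.35 and 3.46 CPM in siSON. Again no siSON library reached the siControl range. The gene lies on chromosome 5 from 612272 to 667168 on the plus strand, with 12 exons, and shares 404 exonic bases with TPPP on the other strand, a gene with 22 counts in all 6 libraries together. This gave a log2 fold change of -0.88 ± 0.12 (SE, with an adjusted p of 5.94e-05). Under cyclic loess normalization the value was -0.54 (adjusted p 0.00256).

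CCDC14 has been described as a satellite protein that restrains centriole duplication, and it is also bound by KIAA0753. CCDC14 (chromosome 3, 123897305 to 123961408, minus strand, 12 exons) was the second most counted member in siControl, with 102, 94.4 and 80.8 CPM. In siSON it had 61.8, 68.8 and 54.5 CPM. Its replicates spread more than those of PCM1 or CEP290, with a coefficient of variation of 11.8% in siControl and 11.6% in siSON, yet the groups did not overlap. This is a log2 fold change of -0.58 ± 0.10 (SE, with an adjusted p of 0.000322).

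OFD1, FOPNL and KIAA0753 are known to form a complex at centrioles and satellites. OFD1 limits centriole length and is mutated in oral-facial-digital syndrome, FOPNL (also FOR20 or CEP20) is a small protein that binds PCM1, and KIAA0753 (also Moonraker) joins the pair. Of their 3 messenger RNAs, that of FOPNL alone passed the threshold. FOPNL (chromosome 16, 15865720 to 15888625, minus strand, 6 exons) rose from 21.3, 25.3 and 24.8 CPM in siControl to 48.0, 51.0 and 54.5 CPM in siSON. Every siSON library was above every siControl library, with a log2 fold change of 1.10 ± 0.08 (SE, with an adjusted p of 3.67e-07). A log2 fold change at least that high was seen in 7.21% of the genes tested, FOPNL included.

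OFD1 (chromosome X, 13734745 to 13769353, plus strand, 23 exons) was counted at 11.6, 10.4 and 11.5 CPM in siControl and 9.68, 10.3 and 10.4 CPM in siSON. The highest siSON library, at 10.39, lay just below the lowest siControl library, at 10.40, so the groups nearly touched. Its log2 fold change was -0.14, with a 95% interval of -0.34 to 0.06 (adjusted p 0.176). That interval leaves room for a fall to 78.8% of control or a rise to 104%. KIAA0753 (chromosome 17, 6578148 to 6640927, minus strand, 19 exons) had 25.3, 26.0 and 26.5 CPM in siControl and 25.8, 24.0 and 25.4 CPM in siSON. The groups overlapped, and the log2 fold change was -0.05 with a 95% interval of -0.20 to 0.10 (adjusted p 0.523). With library size alone both genes passed the threshold as lower, OFD1 at -0.34 (adjusted p 0.00581) and KIAA0753 at -0.25 (adjusted p 0.00698). Under cyclic loess the sign of OFD1 turned, to 0.05 (adjusted p 0.609). TXNDC17 on the other strand, with 13950 counts over all libraries, shares 170 exonic bases, 2.70% of those of KIAA0753, and reads from these cannot be assigned either.

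Within the same library, where scaling plays no part, FOPNL had 184, 243 and 215 reads per 100 OFD1 reads in siControl and 496, 495 and 524 in siSON. The ratio rose 2.38-fold without overlap between groups. Against KIAA0753 it went from 84.2, 97.0 and 93.6 reads per 100 to 186, 213 and 215. KIAA0753 per 100 OFD1 reads was 218, 251 and 230 in siControl and 267, 233 and 244 in siSON, and these groups overlapped. These 3 ratios were chosen after the values were seen and carry no test.

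SSX2IP helps to anchor microtubules at the centrosome and to recruit other satellite clients. It lies on chromosome 1 from 84643707 to 84690803 on the minus strand, with 14 exons. Levels were 22.8, 24.5 and 27.1 CPM in siControl and 21.9, 26.2 and 30.7 CPM in siSON. The siSON libraries enclosed the whole control range and spread more widely than any other member, with a coefficient of variation of 16.7%. The log2 fold change was 0.08, with a 95% interval of -0.18 to 0.34 (adjusted p 0.553), and its sign was negative, at -0.12, with library size alone.

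MIB1 is a ubiquitin ligase best known for its part in Notch ligand uptake, and at satellites it marks PCM1, CEP131 and CEP290 with ubiquitin. MIB1 (chromosome 18, 21704957 to 21870957, plus strand, 21 exons) stood at 43.4, 46.8 and 44.0 CPM in siControl and 69.7, 81.0 and 76.5 CPM in siSON. No library of one group entered the range of the other. This is a log2 fold change of 0.76 ± 0.07 (SE, with an adjusted p of 1.76e-06). The message of the ligase rose in the libraries in which those of PCM1, CEP131 and CEP290 fell. Whether these changes are linked was not tested.

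**Figure D2:**
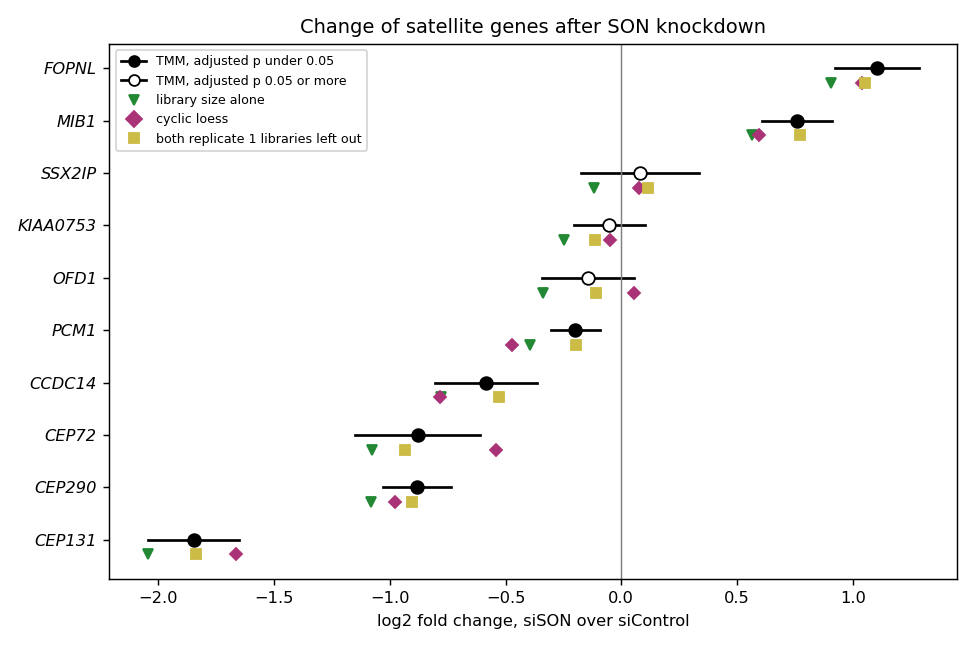
Log2 fold change of each satellite gene, siSON over siControl, with circles for the TMM-scaled edgeR estimate, bars for its 95% interval, and small symbols for 2 other scalings and for the fit without replicate 1 of either group. The 7 genes with filled circles keep their sign under every symbol shown, and the open circles of SSX2IP, KIAA0753 and OFD1 lie within bars that cross 0.

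The 7 called members kept their direction and stayed past the threshold in each of 15 alternative fits. The highest adjusted p among them was 0.0209, for PCM1. The median log2 fold change of all genes was -0.03 with TMM, -0.22 with library size alone and 0.04 with cyclic loess. Relative to the median of all genes under each scaling, CEP131 stood at -1.82 with TMM, -1.82 with library size alone and -1.70 with cyclic loess. On the same relative scale FOPNL stood at 1.13, 1.13 and 1.00 and PCM1 at -0.17, -0.17 and -0.51. The share of higher genes among all calls was 49.1% with TMM and 37.7% with library size alone, and for the members the split of 2 higher and 5 lower became 2 and 7.

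Compared per length, the order of the 10 genes differed between groups. Levels here are CPM per kilobase of the longest coding transcript. In siControl the order was FOPNL (36.8 ± 3.33, SD, n = 3), CCDC14 (22.3 ± 2.63), PCM1 (20.5 ± 0.289), CEP290 (7.11 ± 0.288), CEP131 (5.92 ± 0.178), KIAA0753 (5.34 ± 0.122), MIB1 (4.67 ± 0.191), SSX2IP (4.25 ± 0.373), OFD1 (3.10 ± 0.187) and CEP72 (2.52 ± 0.210). Among these neighbours CCDC14 and PCM1 overlapped over their libraries, and so did MIB1 and SSX2IP. In siSON the order was FOPNL (79.2 ± 5.00), PCM1 (17.9 ± 0.396), CCDC14 (14.8 ± 1.72), MIB1 (7.91 ± 0.597), KIAA0753 (5.16 ± 0.199), SSX2IP (4.50 ± 0.753), CEP290 (3.86 ± 0.189), OFD1 (2.80 ± 0.106), CEP131 (1.65 ± 0.125) and CEP72 (1.37 ± 0.0607). There KIAA0753 overlapped SSX2IP, and SSX2IP overlapped CEP290. CEP131 thus went from place 5 to place 9 and MIB1 from place 7 to place 4. The length matters for such an order. With all annotated exonic bases as the length, PCM1 stood above CCDC14, CEP131 above CEP290 and MIB1 above KIAA0753 in siControl. In siSON MIB1 then stood above CCDC14, so that MIB1 went from place 6 to place 3. The place of FOPNL rested on an annotated transcript of 646 bases; over its 2391 exonic bases it stood at 9.95 CPM per kilobase in siControl, beside 9.69 for PCM1.

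Each client was also set against the scaffold in its own library. Of 9 clients, 3 had more reads per PCM1 read in every siSON library than in any siControl library. Another 4 had fewer, and 2, OFD1 and SSX2IP, overlapped. Such ratios were not computed for the other genes tested. In CPM the groups did not overlap for 75.1% of all genes tested, so these counts alone do not set the clients apart. CEP131 had 15.7, 15.8 and 15.1 reads per 100 PCM1 reads in siControl and 4.94, 5.39 and 4.54 in siSON, a log2 difference of -1.65 (SE 0.07). The ratio of CEP290 went from 36.9, 40.9 and 38.3 to 23.8, 25.5 and 23.0 reads per 100, a difference of -0.68 (SE 0.06). CEP72 had 3.91, 4.52 and 4.71 reads per 100 in siControl and 2.65, 2.76 and 2.77 in siSON, a difference of -0.68 (SE 0.08), and CCDC14 differed by -0.39 (SE 0.14).

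In the other direction, FOPNL had 14.99, 18.2 and 17.8 reads per 100 PCM1 reads in siControl and 40.2, 42.0 and 43.6 in siSON, a log2 difference of 1.31 (SE 0.10). MIB1 went from 30.5, 33.8 and 31.6 to 58.3, 66.7 and 61.3, a difference of 0.96 (SE 0.07). KIAA0753 also separated, from 17.8, 18.8 and 19.0 to 21.6, 19.7 and 20.3 reads per 100. The difference was 0.15 (SE 0.05), and 0.08 without replicate 1 of either group. In CPM the level of KIAA0753 itself overlapped between groups, with a log2 fold change of -0.05, beside -0.20 for PCM1. The differences of OFD1 and SSX2IP were 0.06 (SE 0.05) and 0.27 (SE 0.15). Taken between libraries of the same number, the SE was 0.06 for OFD1 and 0.04 for SSX2IP. The SSX2IP ratio was higher in siSON for every replicate number, although its groups overlapped. For the 7 clients without overlap a 2-sided permutation over the libraries, enumerated in full as an exact test, returned p = 0.1, the smallest value that 3 libraries against 3 allow, so this test cannot pass 0.05. The same exact test gave p = 0.4 for OFD1 and p = 0.2 for SSX2IP. Of these ratios, that of CEP131 moved furthest below its control value and that of FOPNL furthest above.

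**Figure D3:**
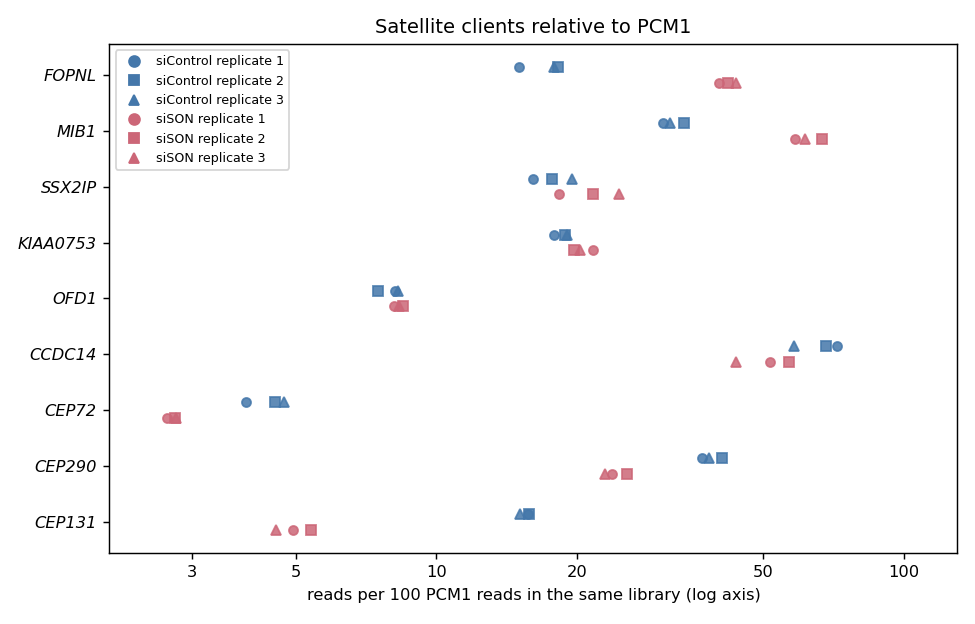
Reads of each satellite client per 100 PCM1 reads in the same library, on a log axis; each point is 1 library and shapes give the replicate number. FOPNL at 40.2 to 43.6 and MIB1 at 58.3 to 66.7 in siSON lie above their control points, CEP131 at 4.54 to 5.39 lies below, and OFD1 and SSX2IP overlap.

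Of the members, FOPNL had fewer exons than the median gene tested, and FOPNL and CEP131 had a shorter span. The median of the members was 20 exons and a span of 58.8 kb, beside 9 exons and 33.6 kb for the 13008 protein-coding genes tested, with a median transcript GC content of 42.2% beside 49.2%. CEP131 had the highest GC content and the shortest median intron of the 10: its transcript held 65.6% GC, its median intron was 656 bases long and 44.0% of its introns were under 500 bases, beside 25.0% of all introns in these protein-coding genes. MIB1 and FOPNL, the members that rose, had no intron under 500 bases and median introns of 3922 and 4352 bases, but CEP72, which fell, also had none and a median of 3379 bases. Across the 10 members Spearman's rho between median intron length and log2 fold change was 0.77, and across 12699 protein-coding genes with introns it was 0.25. For the members it was -0.47 with the number of exons, -0.05 with the span and -0.21 with the GC content, and for the protein-coding genes 0.05, 0.23 and -0.21. The value for intron length was the largest of these 4 for the members, which are only 10 genes, 3 of them not called. None of these correlations was tested. All are descriptions over genes measured in the same 6 libraries. Counts per gene carry no information on the splicing of single introns.

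Other components of satellites were counted from a list of 21 genes, all of them tested. Of these 14 were called, 3 higher and 11 lower, and 7 did not pass the threshold. The 66.7% called is near the 71.7% of all genes tested. The median log2 fold change of the 21 was -0.60, beside -0.03 for all genes tested. The lowest was -5.15 (SE 0.28, adjusted p 3.13e-08), for CCDC61. It had 4.31, 4.94 and 5.53 CPM in siControl and 0.155, 0.194 and 0.0590 CPM in siSON. The 3 higher genes include CCDC13, which passed the filter on low counts only through its siSON counts. Among the lower genes, CCDC61 and CFAP53 passed that filter only through their siControl counts. With a mean count of at least 50 as the filter, 18 genes of the list were tested, 2 called higher and 11 lower. CFAP53, with at most 36 counts in a library, was not among those 18. The 11 lower there therefore include a gene that was not called with the first filter. DZIP1, a satellite and ciliary base protein, was at 93.5, 92.0 and 95.1 CPM in siControl and at 29.2, 31.7 and 30.2 CPM in siSON, a log2 fold change of -1.62 ± 0.06 (SE, with an adjusted p of 2.85e-09). CCHCR1, a coiled-coil centrosomal protein, fell from 26.4, 27.8 and 27.3 CPM to 6.01, 7.85 and 6.85 CPM, a log2 fold change of -1.98 ± 0.10 (SE, with an adjusted p of 2.28e-08). CCDC66, which binds microtubules and PCM1, rose from 13.4, 15.1 and 15.9 CPM to 22.0, 23.5 and 21.7 CPM, a log2 fold change of 0.60 ± 0.09 (SE, with an adjusted p of 8.00e-05). FAM208A on the other strand, with 38171 counts over all libraries, shares 287 exonic bases, 3.1% of those of CCDC66. Reads from these bases cannot be assigned to one gene. CCDC13 was barely counted, with 0, 1 and 1 counts in siControl and 24, 23 and 13 in siSON, a ratio of 38.9 with a 95% counting interval of 10.3 to 329; AC006059.2 shares 62.9% of its exonic bases on the same strand, so these counts are uncertain. FGFR1OP, a relative of FOPNL and chosen after its values were seen, fell by 0.60 on the log2 scale ± 0.10 (SE, with an adjusted p of 0.000326), opposite in direction to FOPNL.

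Satellites bring a set of microcephaly proteins and the kinase CDK2 to the centrosome for centriole duplication. All 5 of these genes were called, 3 higher and 2 lower, with a median log2 fold change of 0.31, beside 71.7% of all genes tested that were called. The count was 4 with library size alone, with 2 higher and 2 lower, and 3 under cyclic loess, with 2 higher and 1 lower. WDR62 rose from 32.1, 33.1 and 31.4 CPM to 46.7, 53.1 and 43.5 CPM (log2 fold change 0.57, SE 0.08, adjusted p 5.47e-05), and CEP63 rose by 0.43 (SE 0.07, adjusted p 0.000267). ANAPC13 on the other strand, with 15008 counts over all libraries, shares 306 exonic bases, 2.95% of those of CEP63. Reads from these bases cannot be assigned to one gene. CDK2 fell from 135, 146 and 155 CPM to 49.9, 75.4 and 75.3 CPM, a log2 fold change of -1.12 ± 0.14 (SE, with an adjusted p of 8.67e-05). For CEP152, the scaffold that receives PLK4, the estimate was a log2 fold change of -0.34 ± 0.11 (SE, with an adjusted p of 0.0182), a call that was lost without siControl replicate 2 (adjusted p 0.0567), siControl replicate 3 (0.0677) or siSON replicate 1 (0.0607) and under cyclic loess (0.0846).

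Enzymes and partners that act on satellites made up the last list, of 10 genes, and all 10 were called, 7 higher and 3 lower, with a median log2 fold change of 0.20, beside 71.7% of all genes tested that were called, 35.2% as higher and 36.5% as lower. That count was the least stable of the lists: scaling by library size alone gave 5, with 2 higher and 3 lower, and the count was 6, with 3 higher and 3 lower, under cyclic loess and also without siControl replicate 2. MAPKAPK2, the stress kinase that phosphorylates CEP131, rose from 60.4, 55.1 and 61.7 CPM to 139, 144 and 146 CPM, a log2 fold change of 1.28 ± 0.06 (SE, with an adjusted p of 1.26e-08). USP9X, a deubiquitylase of satellite proteins, rose from 165, 163 and 136 CPM to 284, 272 and 284 CPM, a log2 fold change of 0.86 ± 0.07 (SE, with an adjusted p of 9.70e-07). DISC1, a binding partner of PCM1, fell from 6.35, 6.17 and 6.10 CPM to 2.64, 2.75 and 2.62 CPM, a log2 fold change of -1.22 ± 0.12 (SE, with an adjusted p of 2.97e-06). TSNAX-DISC1, with 5 counts over all libraries, shares 2641 exonic bases on the same strand, 20.5% of those of DISC1. Reads from these bases cannot be assigned to one gene. KIAA0586, the centriolar protein TALPID3, fell by 0.42 ± 0.08 (SE, with an adjusted p of 0.000901). TIMM9 on the other strand, with 5508 counts over all libraries, shares 223 exonic bases, 2.19% of those of KIAA0586. PLK4, the induced kinase that also phosphorylates PCM1, had 163, 184 and 185 CPM in siControl and 113, 159 and 143 CPM in siSON (log2 fold change -0.36, SE 0.11, adjusted p 0.0143; -0.22 without siSON replicate 1), and counts of its native and inducible copies are not separated. CETN2, the gene whose product is tagged, rose by 0.38 ± 0.05 (SE, with an adjusted p of 5.89e-05), a rise that was lost under cyclic loess normalization (-0.03, adjusted p 0.519).

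**Figure D4:**
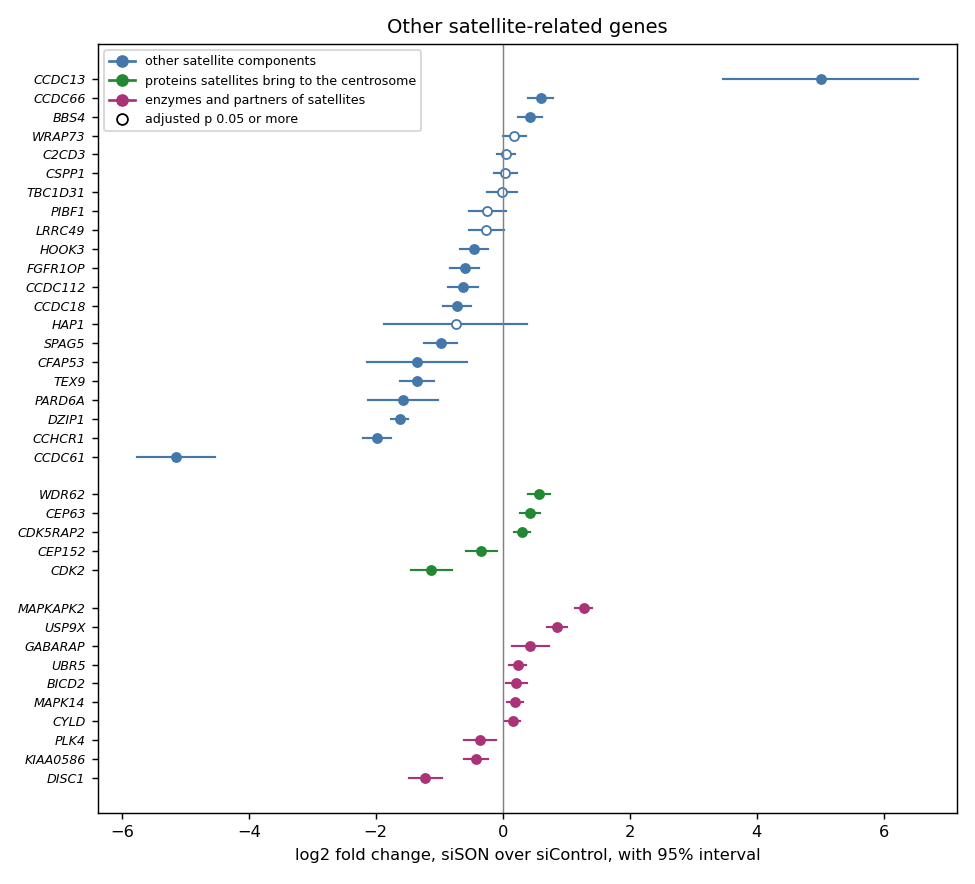
Log2 fold change, siSON over siControl, of 36 other satellite-related genes with 95% intervals; filled circles passed an adjusted p of 0.05 and open circles did not. Of the 21 other satellite components 11 lie lower and 3 higher among the filled circles. The 3 include CCDC13, which had almost no siControl counts. The 11 include CCDC61 and CFAP53, which passed the filter on low counts only through their siControl counts. Of the 10 enzymes and partners 7 lie higher, a number that was 2 with library size alone and 3 under cyclic loess. Of all genes tested 35.2% were called higher and 36.5% lower.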

How the data were processed

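The deposited table gives raw read counts as whole numbers, 1 row per gene and 1 column for each of the 6 libraries. The submitters' processing notes name cutadapt 1.16, STAR 2.5.2a, featureCounts 1.6.2, DESeq2 1.28.1 and build hg38, without order or settings; the strand setting and the handling of multi-mapping reads are not given in the sources used here. Columns were matched to samples by title. Identifiers matched GENCODE release 29 of GRCh38 for all 58735 genes, and positions, lengths, introns and GC content came from it.

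Counts were tested in R 4.3.3 with edgeR 4.0.16: filterByExpr (minimum count 10), TMM scaling, a robust quasi-likelihood fit on group, and Benjamini-Hochberg adjustment over all genes. The procedure was also run on simulated counts in which only a small part of the genes changed. Most genes tested were called in the real data, so that run cannot check the TMM scaling. Standard errors are the absolute log2 fold change over the square root of F. Alternatives were DESeq2 1.42.0, limma 3.58.1 (voom, and cyclic loess with prior count 2), RLE factors, library size alone, no filter, a mean count of at least 50, a replicate block and leaving out each library.

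The members and lists were chosen with earlier results of these data known. Named are the members, SON, PLK4, CETN2 and, in each other list, up to 2 genes per direction with the smallest adjusted p. FGFR1OP, CCDC61 and CFAP53 were named outside this rule, after their values were seen. The limit that 0 counts allows, taken as 3 counts, lay between 0.0430 and 0.0550 CPM of the raw totals; it covers counting error only.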

Additional observations from a re-analysis of the deposited data

How the results depend on the processing

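Over 15 alternatives between 10226 and 12604 genes were called, beside 11888. The number of members called stayed at 7, except with library size alone, where it was 9. That setting gave OFD1 a log2 fold change of -0.34, KIAA0753 -0.25 and SSX2IP -0.12; cyclic loess gave OFD1 0.053 and CETN2 -0.035. Leaving out 1 library moved SSX2IP between -0.034 and 0.21. The list of enzymes and partners had 5 called genes with library size alone, 6 under cyclic loess and 6 to 10 when 1 library was left out, and the list of proteins brought to the centrosome had 3 under cyclic loess; the cause was not tested. Same-numbered libraries of the groups correlated in their deviations from the group mean at 0.0461 to 0.194 and different-numbered ones at -0.138 to 0.0286, so every library correlated best with its own number, but the labels do not say what a number stands for. With the replicate block 12313 genes and 7 members were called. The alternative without both replicate 1 libraries and the exonic length were added after the data were seen. The lowest member count, 173, belonged to CEP72, so depth limits its precision most.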
